A study of Mus musculus with 6 samples.

Results

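The genes described here carry the adrenergic and muscarinic control of the heart muscle cell. They are 9 genes of the 54532 gene IDs in the deposited expression table, taken by their symbols: the receptors Adrb1, Adra1a, Adra1b and Chrm2, the adenylyl cyclases Adcy5 and Adcy6, and the phosphodiesterases Pde3a, Pde4b and Pde4d. All 9 symbols were matched to 1 gene ID each in the GENCODE M21 annotation (GRCm38), and the rule uses no measured value. RNA was sequenced from mouse primary cardiomyocytes isolated from neonatal hearts that carried a Cre-inducible Rit1 M90I allele, a variant of the small GTPase RIT1 that is linked to Noonan syndrome. On day 3 after isolation the cultures received adenovirus encoding GFP (AdGFP, labelled Rit1 +/+, 3 samples) or GFP with Cre recombinase (AdCre, labelled Rit1 M90I/+, 3 samples). Per the methods of the study, hearts were digested with collagenase and the pooled cell suspension was pre-plated, a step that lowers the number of fibroblasts without removing every other cell type. Per the study, RNA was collected several days after infection. The promoter that drives Cre in the virus is not given in the sources used here. The variant and Cre came together, and wild-type cells given AdCre were not analysed here, so an effect of the variant and one of Cre cannot be told apart. Samples are labelled as biological replicates without a word on separate animals or cultures. The p-values therefore measure only the spread between these samples.

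In the heart, noradrenaline and adrenaline act on beta-adrenergic receptors, which couple through the stimulatory G protein Gs to adenylyl cyclase and raise cyclic AMP (cAMP). cAMP activates protein kinase A (PKA), which phosphorylates calcium channels, phospholamban and troponin I, so that the myocyte contracts harder and relaxes faster. Acetylcholine from the vagus nerve acts on the muscarinic M2 receptor, couples to Gi and opposes this signal, phosphodiesterases break cAMP down in separate compartments of the cell, and alpha1-adrenergic receptors act through Gq and phospholipase C, a route known for promoting myocyte growth.

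Levels are in FPKM, a fragment count divided by exon length and library size. Reads recovered from these values came to 25.3 to 26.5 M (megareads) per AdGFP sample and 26.0 to 32.4 M per AdCre sample. Rit1 itself stood at 8.55 ± 0.774 FPKM (SD, n = 3) in AdGFP and 9.19 ± 0.351 in AdCre, and these values count both alleles, so they do not check the recombination. The 12 cardiomyocyte markers were all present, with a summed level of 6970 to 12400 FPKM in AdGFP and 4010 to 6280 in AdCre. Their mean log2 level was 7.93, 7.80 and 7.27 in AdGFP replicates 1 to 3 and 6.95, 7.27 and 6.38 in AdCre, a difference of -0.80. Of the 12 markers, 12 were lower in AdCre in mean, 0 passed the test without a replicate block and 7 passed it with the block. With the block 3.51% of all genes passed as lower. These are bulk samples, so fewer myocytes and less RNA per myocyte cannot be told apart.

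Groups were compared with limma on log2(FPKM + 0.1) over the 13794 genes whose average reached 0.5 FPKM, with Benjamini-Hochberg adjustment over all of them. A gene is said to pass at an adjusted p under 0.05. Same-numbered AdGFP and AdCre samples deviated together from their group means, so a second fit held the replicate number as a block, and its value is given wherever it changes a call. Without the block, 1 gene passed, or 0.00725% of those tested. With it, 848 passed, or 6.15%, of which 484 were lower in AdCre (3.51%) and 364 higher (2.64%). The higher genes made up 42.9% of these calls, 61.5% after rescaling to TPM and 54.8% without the library scaling inferred from the values, so the split depends on scaling.

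The 3 members with the lowest log2 fold changes were Adrb1, Adcy5 and Chrm2, and the DNA just before their transcription starts is printed for that reason. Each line gives the 250 bases before the start from RefSeq (GRCm38.p6, plus strand), at chr19:56721867-56722116 for Adrb1, chr16:35154614-35154863 for Adcy5 and chr6:36387834-36388083 for Chrm2. Capitals mark letters that match a motif on either strand.
Adrb1: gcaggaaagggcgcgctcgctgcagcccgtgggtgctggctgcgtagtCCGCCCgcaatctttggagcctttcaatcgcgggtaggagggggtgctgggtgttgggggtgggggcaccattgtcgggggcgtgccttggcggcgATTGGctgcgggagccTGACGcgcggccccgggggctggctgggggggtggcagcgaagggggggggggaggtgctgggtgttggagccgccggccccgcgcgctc
Adcy5: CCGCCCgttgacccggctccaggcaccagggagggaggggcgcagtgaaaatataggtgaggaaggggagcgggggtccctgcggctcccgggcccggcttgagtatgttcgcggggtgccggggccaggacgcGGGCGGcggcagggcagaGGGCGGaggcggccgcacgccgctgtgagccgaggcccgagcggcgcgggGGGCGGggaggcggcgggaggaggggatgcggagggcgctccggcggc
Chrm2: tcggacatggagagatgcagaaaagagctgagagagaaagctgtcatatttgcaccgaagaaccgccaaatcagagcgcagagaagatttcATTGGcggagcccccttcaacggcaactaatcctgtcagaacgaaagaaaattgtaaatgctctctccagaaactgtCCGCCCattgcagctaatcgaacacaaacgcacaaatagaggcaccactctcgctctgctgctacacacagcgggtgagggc
The motifs were the cAMP response element TGACGTCA, its shorter form TGACG (which lies within it), the GC box GGGCGG and the CCAAT box CCAAT. The full cAMP response element, held by 1.55% of the 32851 promoters of the same length, was found in none of these 3 stretches. Adrb1 holds TGACG once, as do 17.77% of all promoters at least once, together with 1 GC box and 1 CCAAT box. Adcy5 holds 4 GC boxes, a motif found in 32.74% of promoters, and Chrm2 holds 1 GC box and 1 CCAAT box, the last found in 33.85%. GC content was 74.0% for Adrb1, 78.0% for Adcy5 and 50.0% for Chrm2, against a median of 52.4% over all promoters. Of the 9 members, 6 had entries, 10 in all, since Pde4b has 4 and Adra1b has 2. Such matches describe letters, not binding.

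Across the pathway members, levels differed from one gene to the next far more than between the groups. In AdGFP the order per length of transcript was Adcy6, Adrb1, Chrm2, Pde3a, Adcy5, Adra1b, Pde4b, Pde4d and Adra1a, from 29.2 FPKM down to 0.0214. The ranges of Adcy6 and Adrb1 overlapped, as did those of Chrm2 with Pde3a, Pde3a with Adcy5, and Adcy5 with Adra1b, so these neighbours are not ordered beyond their spread. In AdCre, Adcy6 and Adrb1 no longer overlapped: Adcy6 ranged from 25.7 to 32.5 FPKM and Adrb1 from 13.9 to 20.7. Adra1b and Adcy5 changed places there, with overlapping ranges.

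**Figure D1:**
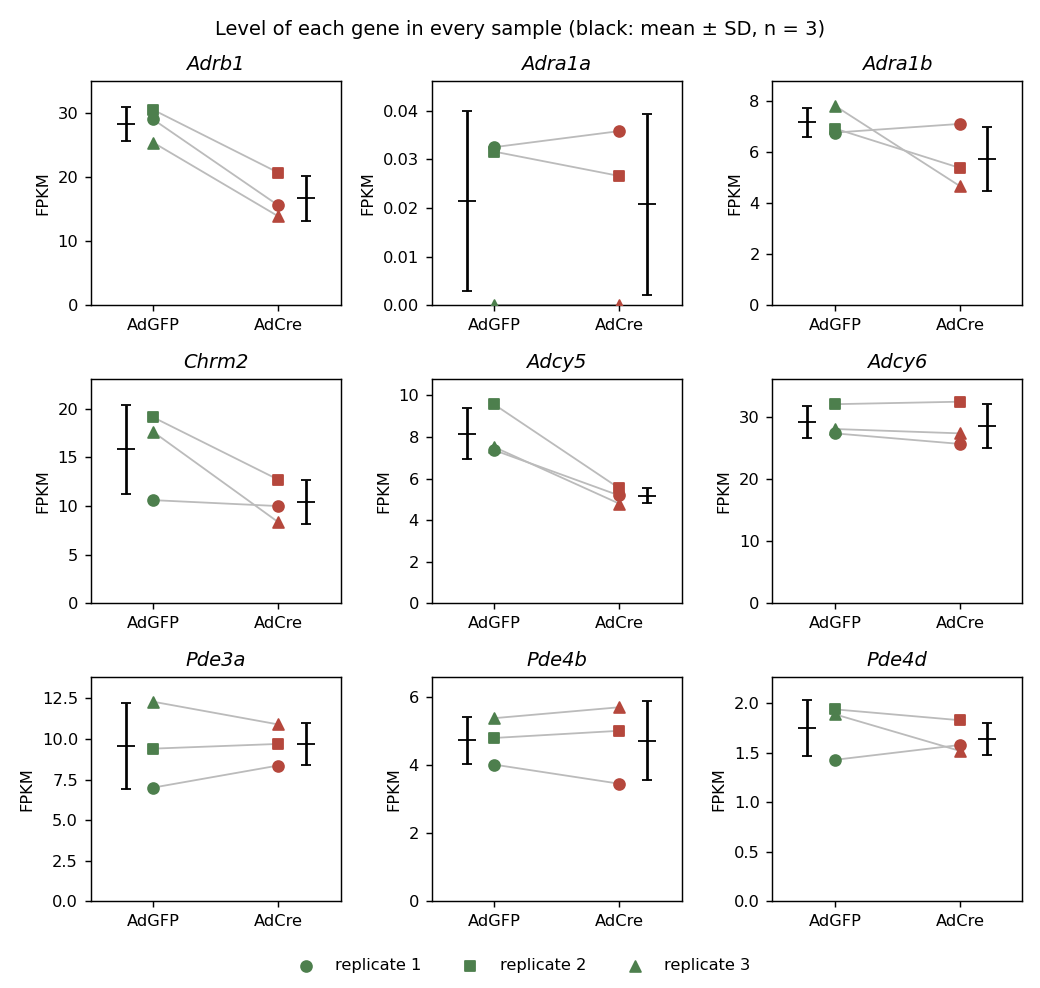
FPKM of the 9 genes in each sample, with 1 panel per gene and its own linear axis from 0. Circles, squares and triangles are replicates 1, 2 and 3, grey lines join samples with the same number, and black bars show the mean ± SD of 3 samples. Only in the panels of Adrb1 and Adcy5 do the 3 AdCre samples all sit below the 3 AdGFP samples.

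Among the 8 members that could be tested, 7 were lower in AdCre and 1 higher in mean, with a median log2 fold change of -0.21 against -0.002 over all 13794 genes. After rescaling to TPM, Adcy6 and Pde4b were higher as well, at 0.05 and 0.06, and Pde4d was at 0.00, so the count of lower members depends on scaling. Without the block 0 of the 8 passed in limma, and 2 of the 8, both lower, had an unadjusted p below 0.05, as did 10.2% of all genes (5.45% lower). The block let 2 of 8 pass, Adrb1 and Adcy5, both lower in AdCre, where 6.15% of all genes passed and 3.51% passed as lower. In that fit 3 of 8 had an unadjusted p below 0.05, as did 24.7% of all genes. Adrb1 and Adcy5 were also the members whose groups did not overlap, which held for 8.02% of all genes in that direction and for 7.36% in the other. The ninth member, Adra1a, was below the level needed for testing.

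**Figure D2:**
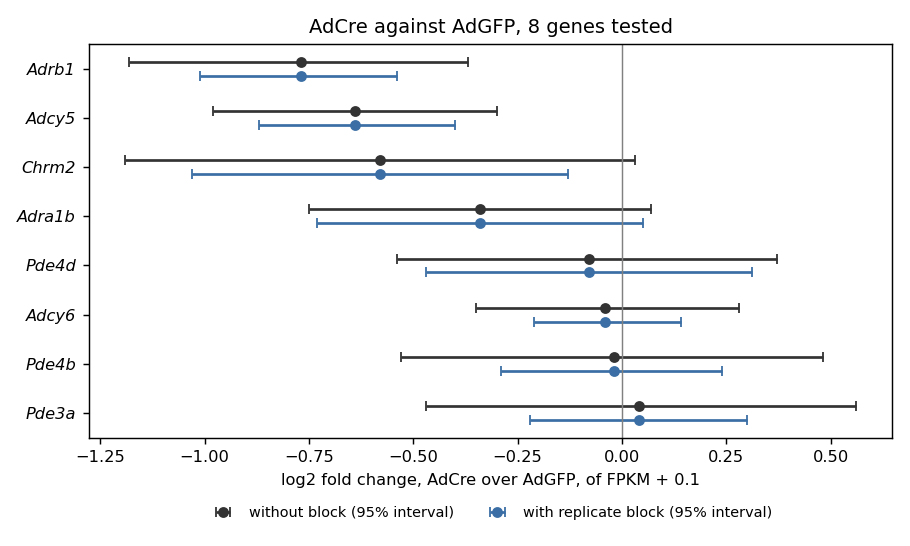
Log2 fold change of FPKM + 0.1, AdCre over AdGFP, for the 8 genes tested, with 95% intervals from the fit without (black) and with (blue) the replicate block. Both intervals of Adrb1 and Adcy5 lie below 0, that of Chrm2 does so only with the block, and those of the other 5 genes include 0.

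Adrb1 encodes the beta1-adrenergic receptor, the main receptor for noradrenaline on the working myocyte, and lies at chr19:56722199-56733113 on the plus strand. Its FPKM was 29.0, 30.5 and 25.4 in AdGFP replicates 1 to 3 and 15.6, 20.7 and 13.9 in AdCre. Every AdCre sample stood below every AdGFP sample. The mean of 16.7 ± 3.54 FPKM in AdCre was 41.5% below the 28.3 ± 2.62 in AdGFP (log2 fold change -0.77, SE 0.17, 95% interval -1.18 to -0.37). In limma the adjusted p was 0.246 without the block and 0.0194 with it, so the gene fell by the blocked test alone. All 3 same-numbered pairs were lower, by -0.89, -0.56 and -0.87 in log2. Without pair 3 the blocked adjusted p rose to 0.103 with the log2 fold change within -0.88 to -0.69 over all blocked settings. The 1299 to 2616 reads behind each value mean that counting error is small beside this spread.

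In the same pairs the mean of the 12 cardiomyocyte markers differed by -0.98, -0.53 and -0.89, close to the Adrb1 values. Set against those markers within each sample, the log2 ratio for Adrb1 came to -3.06, -2.87 and -2.59 in the AdGFP samples and to -2.98, -2.90 and -2.57 in the AdCre samples. The 2 ranges overlapped almost entirely, with a difference of 0.03 (exact two-sided permutation test, p = 0.9, where 3 samples against 3 cannot give less than 0.1). Adrb1 was thus lower relative to library size, while its level relative to the mean of these 12 markers differed by less than the spread between samples. The single markers had log2 fold changes from -0.24 for Myh7 to -1.31 for Pln, so this closeness depends on the markers averaged. By Pearson correlation of log2 levels over the 6 samples, the genes most like it were Tmx4 (0.9988), a thioredoxin-related transmembrane protein, Actn2 (0.9976), the alpha-actinin of the sarcomeric Z-disc, and Mdh1 (0.9955), a malate dehydrogenase. These correlations share the 6 libraries and the difference between the groups, and are given as description.

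Adra1b and Adra1a encode alpha1-adrenergic receptors, which couple to Gq. Adra1b, at chr11:43774606-43901210 on the minus strand, had 6.75, 6.91 and 7.80 FPKM in AdGFP and 7.09, 5.37 and 4.66 in AdCre. AdCre replicate 1 lay inside the AdGFP range, and the others lay below it. Means were 7.15 ± 0.564 and 5.71 ± 1.25 FPKM (log2 fold change -0.34, SE 0.17, 95% interval -0.75 to 0.07, limma adjusted p = 0.586), so a fall of the size seen for Adcy5 is inside the interval. The pairs differed by 0.07, -0.36 and -0.73. In the blocked fit the log2 fold change was -0.54 without pair 1 and -0.14 without pair 3. Relative to the cardiomyocyte markers Adra1b stood 0.46 higher in AdCre in log2, with 1.05, 0.17 and 0.16 in the pairs and overlapping groups (exact two-sided permutation test, p = 0.2). It stood 0.29 higher without AdGFP replicate 1 and 0.72 higher without AdGFP replicate 3. The markers themselves differed by -0.80, more than Adra1b did.

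Adra1a, at chr14:66635251-66771168 on the plus strand, was near the limit of detection. It had 7, 7 and 0 reads in AdGFP and 10, 6 and 0 in AdCre, or 0.0325, 0.0316 and 0 FPKM against 0.0358, 0.0266 and 0. In both replicates numbered 3 the count of 0 allows a level of up to 0.0139 FPKM in AdGFP and 0.0124 in AdCre (3 reads, counting error only). No difference between the groups was seen, and a small difference or a fall was not detectable at this depth. Adra1d, the remaining receptor of the family, stood at 4.30 ± 1.90 and 4.55 ± 1.91 FPKM, so Adra1b and Adra1d stood above Adra1a per length in these cultures.

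Chrm2 encodes the muscarinic M2 receptor, the receptor through which the vagus nerve slows the heart, and lies at chr6:36388084-36528414 on the plus strand. Its FPKM was 10.6, 19.1 and 17.6 in AdGFP and 9.99, 12.7 and 8.34 in AdCre. AdGFP replicate 1 stood far below the other AdGFP samples and within the AdCre range, so the groups overlapped. Means were 15.8 ± 4.53 and 10.4 ± 2.22 FPKM (log2 fold change -0.58, SE 0.26, 95% interval -1.19 to 0.03, limma adjusted p = 0.516, and 0.124 with the block). The pairs spread from -0.09 through -0.58 to -1.07. With pair 1 left out of the blocked fit the log2 fold change was -0.83 and the adjusted p 0.0246, and without pair 3 they were -0.34 and 0.331, so both the call and the fold depended on which pairs were used. Against the cardiomyocyte markers Chrm2 differed by 0.22, with 0.89, -0.05 and -0.17 in the pairs (exact two-sided permutation test, p = 0.9). Chrm2 also passed when voom was run with the block on the recovered reads. A gene on the opposite strand, 9330158H04Rik, covers 2.35% of the Chrm2 exons.

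The balance between the vagal and the sympathetic receptor, taken as the log2 ratio of Chrm2 to Adrb1, was -1.44, -0.67 and -0.53 in AdGFP and -0.64, -0.69 and -0.73 in AdCre. The AdCre samples lay close together inside the AdGFP range. The difference of 0.19 did not exceed the spread (exact two-sided permutation test, p = 0.9), and without AdGFP replicate 1, which stood apart, it was -0.09.

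Adcy5 and Adcy6 encode the 2 adenylyl cyclases that dominate in heart muscle, a closely related pair that is stimulated by Gs and inhibited by Gi and by calcium. Adcy5 was lower in every AdCre sample than in any AdGFP sample, and Adcy6 was not. Adcy5, at chr16:35154877-35305738 on the plus strand, had 7.37, 9.57 and 7.52 FPKM in AdGFP and 5.19, 5.54 and 4.80 in AdCre. No AdCre sample reached the lowest AdGFP sample. The mean of 5.18 ± 0.369 FPKM was 35.7% below that of 8.15 ± 1.23 (log2 fold change -0.64, SE 0.14, 95% interval -0.98 to -0.30). The limma adjusted p was 0.252 without the block and 0.0284 with it, and the pairs differed by -0.50, -0.78 and -0.64. Without pair 2 or without pair 3 the blocked call was lost (limma adjusted p = 0.12 and 0.13), at log2 fold changes of -0.57 and -0.64.

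Adcy6, at chr15:98589973-98610076 on the minus strand, had 27.4, 32.1 and 28.1 FPKM in AdGFP and 25.7, 32.5 and 27.4 in AdCre. The groups overlapped throughout, and replicate 2 was the highest sample of each. Means were 29.2 ± 2.55 and 28.6 ± 3.54 FPKM, with a log2 fold change of -0.04 (SE 0.13, limma adjusted p = 0.971), and of 0.05 after rescaling to TPM. Its 95% interval of -0.35 to 0.28 does not include the log2 fold change measured for Adcy5. Strand use in counting is not given in the sources used here, and Gm29331 on the opposite strand covers 8.92% of the Adcy6 exons.

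The log2 ratio of Adcy5 to Adcy6, which cancels whatever scales both genes alike in a sample, was -1.88, -1.74 and -1.89 in AdGFP and -2.29, -2.53 and -2.49 in AdCre. The groups were well apart, at -1.83 ± 0.08 and -2.44 ± 0.13 (SD, n = 3). The difference was -0.60, with -0.41, -0.80 and -0.60 in the pairs, and the exact two-sided permutation p of 0.1 is the smallest that 3 against 3 can give. Of the 5 ratios computed between members, this was the one whose groups did not overlap. Against the 12 cardiomyocyte markers, Adcy5 differed by 0.16 (exact permutation p = 0.6) and Adcy6 by 0.76 (exact permutation p = 0.1, groups not overlapping). The first of these differences lay within the spread between samples, and the other did not. Adcy6 itself had a log2 fold change of -0.04, so its 0.76 mostly restates the marker difference of -0.80. Whether Adcy6 RNA came from other cells in the culture was not tested.

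**Figure D3:**
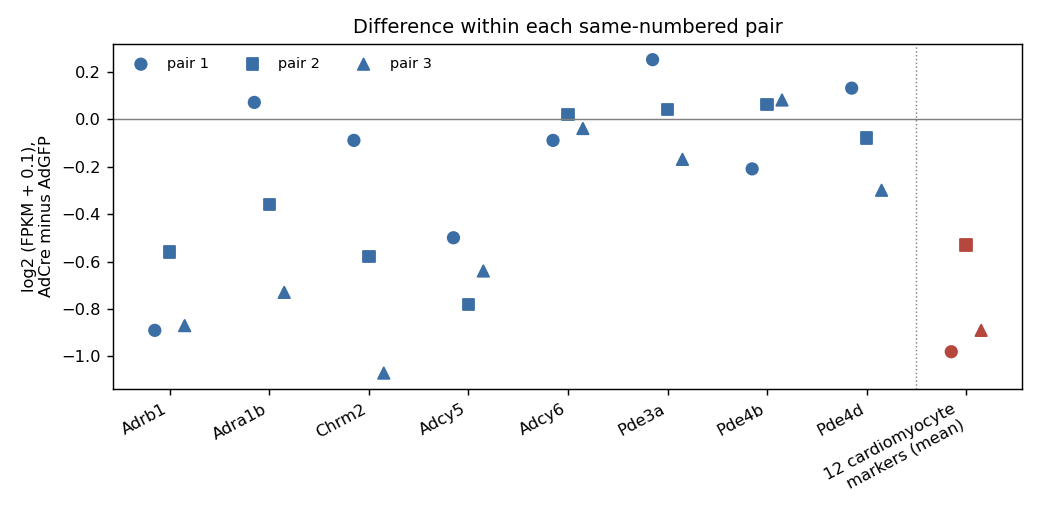
Difference in log2(FPKM + 0.1), AdCre minus AdGFP, within each same-numbered pair for the 8 genes tested (blue) and for the mean of 12 cardiomyocyte markers (red). Adrb1 and Adcy5 lie below 0 in all 3 pairs, as the markers do, Chrm2 runs from -0.09 to -1.07, and Adcy6 stays between -0.09 and 0.02.

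The genes most like Adcy5 over the 6 samples were Stn1 (0.9977), a part of the telomere CST complex, the adiponectin receptor gene Adipor2 (0.9918) and the long noncoding RNA gene Gm30262 (0.9889). Within the 8 tested members, Adrb1 and Adcy5 followed each other most closely (Pearson r = 0.94 over 6 samples), and Chrm2 had 0.88 with Pde4d, 0.83 with Adcy5 and 0.76 with Adrb1. Pde3a and Pde4b had 0.80 with each other. Adrb1 and Adcy5 differ between the groups, so these correlations hold the group difference as well as the variation within a group.

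Pde3a, Pde4b and Pde4d encode the enzymes known for much of the cAMP breakdown in the rodent myocyte, with Pde3a inhibited by cGMP and the PDE4 enzymes specific for cAMP. None of the 3 passed in either fit. Pde3a, at chr6:141249269-141507448 on the plus strand, had 7.01, 9.41 and 12.3 FPKM in AdGFP and 8.37, 9.70 and 10.9 in AdCre, so that the AdCre samples lay inside the AdGFP range. Its log2 fold change was 0.04 (SE 0.22, 95% interval -0.47 to 0.56, limma adjusted p = 0.979). In both groups the samples came in the same order by number. Gm28523 on the opposite strand covers 5.82% of its exons.

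Pde4b, at chr4:102087543-102607259 on the plus strand, had 4.01, 4.79 and 5.37 FPKM in AdGFP and 3.45, 5.00 and 5.69 in AdCre, with means of 4.72 ± 0.682 and 4.71 ± 1.15. The order by replicate number was again shared. Its log2 fold change was -0.02 (SE 0.21, 95% interval -0.53 to 0.48, limma adjusted p = 0.989). Pde4d, at chr13:108449948-109953461 on the plus strand, was the lowest of the 3, with 1.43, 1.94 and 1.89 FPKM against 1.58, 1.83 and 1.52. Its groups overlapped, with a log2 fold change of -0.08 (SE 0.19, 95% interval -0.54 to 0.37, limma adjusted p = 0.944).

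The sign of all 3 depended on the setting, and the intervals leave room for a change in either direction. The ratio of Pde4b to Pde4d differed by 0.06 (exact two-sided permutation p = 0.9). The ratio of Pde3a to Pde4d differed by 0.12 (p = 0.5 in the same exact permutation test), and did so by 0.12, 0.12 and 0.13 within the pairs. Relative to the cardiomyocyte markers the phosphodiesterases stood 0.84, 0.78 and 0.72 higher in AdCre in the order Pde3a, Pde4b, Pde4d, with overlapping groups and exact permutation p-values of 0.3, 0.3 and 0.2 in a test that does not use the pairing. Within the pairs all 3 were higher each time, by 1.23, 0.57 and 0.72 for Pde3a, 0.76, 0.59 and 0.97 for Pde4b, and 1.11, 0.45 and 0.60 for Pde4d. With a sample left out these differences lay between 0.50 and 1.24, 0.38 and 1.07, and 0.45 and 0.97, lowest without AdCre replicate 3 for Pde3a and Pde4b and without AdGFP replicate 1 for Pde4d, and highest without AdGFP replicate 3. On their own these 3 genes had log2 fold changes of 0.04, -0.02 and -0.08, while the markers differed by -0.80. Their ratios thus mostly restate the marker difference. Over the 13 ratios computed in all, no p fell below 0.1, the smallest this unpaired test can give, so none could pass after adjustment.

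The rest of the pathway was read from 9 lists of 133 genes, of which 117 were tested. In limma without the block 0 of the 117 passed, and 31 had an unadjusted p below 0.05, as did 10.2% of all genes. The block gave 19 lower and 4 higher, against backgrounds of 3.51% and 2.64%. Of the blocked calls, 16 of 24 were lower after rescaling to TPM, 18 of 26 without the inferred library scaling and 26 of 36 with voom. In the blocked fit 53 of the 117 had an unadjusted p below 0.05, against 24.7% of all genes. Without the 9 members these counts were 17 and 4 of 109. The median log2 fold change of the 117 genes was -0.01, near that of all genes, and 14 of the 19 lower genes stood in the lists of cAMP effectors and of PKA and muscarinic effectors.

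**Figure D4:**
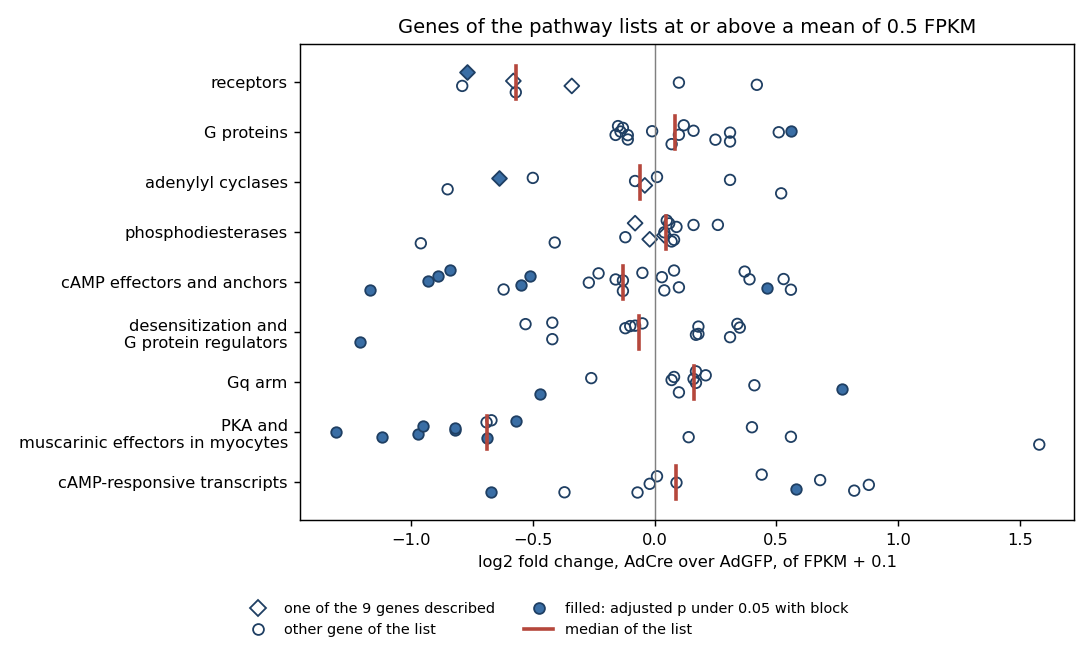
Log2 fold change of FPKM + 0.1 for the 117 tested genes of the 9 pathway lists, 1 row per list. Diamonds are the receptors, cyclases and phosphodiesterases among the 9 genes, circles the other genes of each list, filled symbols those with an adjusted p under 0.05 with the replicate block, and red bars the list medians. Filled symbols lie mostly left of 0, with 8 among the PKA and muscarinic effectors and 6 among the cAMP effectors and anchors.

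Of 14 adrenergic and muscarinic receptors, 7 were tested, and Adrb1 alone passed with the block, where 6.15% of all genes passed. Adrb3, the beta3 receptor, had 0.893 ± 0.236 FPKM in AdGFP and 0.474 ± 0.139 in AdCre (log2 fold change -0.79, limma adjusted p = 0.492, and 0.221 with the block). Gm45470 on the other strand covers 24.9% of its exons. Of 16 G protein subunits tested, Gnb4, a beta subunit, was higher with the block at 3.61 ± 0.0692 against 2.42 ± 0.0477 FPKM (log2 fold change 0.56, limma adjusted p = 0.246, and 0.0442 with the block). The other 15 did not pass. Of 8 cyclases Adcy5 alone passed. Next to it was Adcy4, a cyclase that calcium does not inhibit, at 2.40 ± 0.559 and 3.50 ± 0.858 FPKM (log2 fold change 0.52, blocked limma adjusted p = 0.0521), which passed in 4 of the 14 blocked settings. None of 14 phosphodiesterases passed. The smallest p belonged to the calcium-calmodulin-dependent Pde1c, at 1.02 ± 0.365 and 0.504 ± 0.28 FPKM (log2 fold change -0.96, blocked limma adjusted p = 0.13). Over the fits without the block its log2 fold change lay between -1.29 and -0.42.

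Downstream of cAMP, 6 of 22 effectors and anchors were lower and 1 higher with the block, against 3.51% and 2.64% of all genes. Pkia and Pkig, small proteins that inhibit the PKA catalytic subunit, fell from 50.1 ± 3.95 to 26.7 ± 6.12 FPKM (log2 fold change -0.93, blocked limma adjusted p = 0.0165) and from 29.7 ± 6.18 to 20.0 ± 2.74 FPKM (-0.55, 0.0269). Pde4dip, or myomegalin, a binding partner of PDE4D, fell from 26.0 ± 3.77 to 14.5 ± 2.80 FPKM (log2 fold change -0.84, blocked limma adjusted p = 0.0188). Without the block the limma adjusted p was 0.206 for Pkia, 0.39 for Pkig and 0.24 for Pde4dip. Popdc3 fell from 19.3 ± 10.8 to 9.86 ± 3.54 FPKM (log2 fold change -0.89, blocked limma adjusted p = 0.0269, and 0.544 without the block). Its groups overlapped, and AdGFP replicate 1 stood at 31.5 FPKM, against 15.3 and 11.1 in replicates 2 and 3. Like Popdc3, Bves and Popdc2 fell with the block, by -1.17 and -0.51 in log2. These 3 genes make up the family of Popeye proteins, which bind cAMP in the membranes of muscle cells. The higher gene was Prkar2b, a regulatory subunit of PKA, with a log2 fold change of 0.46 and a blocked limma adjusted p of 0.039. Bves, Popdc2 and Prkar2b were named after their values were seen. The catalytic subunit gene Prkaca stood at 153 ± 28.5 and 126 ± 21.9 FPKM and did not pass.

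Among 14 regulators of receptors and G proteins, Rgs6 alone passed, and only with the block, where 6.15% of all genes passed. RGS6 speeds the shutdown of Gi and Go signals and is known for limiting the muscarinic slowing of the heart. Rgs6 fell from 2.94 ± 0.269 to 1.21 ± 0.17 FPKM (log2 fold change -1.21, limma adjusted p = 0.113, and 0.0153 with the block), with -1.29, -1.16 and -1.19 in the pairs. Of 11 genes of the Gq arm, the inositol trisphosphate receptor gene Itpr3 rose from 4.72 ± 0.393 to 8.19 ± 1.41 FPKM (log2 fold change 0.77, blocked limma adjusted p = 0.0326). The phospholipase gene Plcb4 fell from 10.8 ± 1.07 to 7.84 ± 1.61 FPKM (log2 fold change -0.47, blocked limma adjusted p = 0.0499), a call that only 3 of the 14 blocked settings made.

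The list with the most calls held the targets of PKA and of the muscarinic receptor in the myocyte. With the block 8 of its 14 genes were lower and 0 higher, against 3.51% and 2.64% of all genes. Its median log2 fold change was -0.69. Log2 fold changes in it ran from -1.31 for Pln to 1.58 for Ppp1r1a, an inhibitor of protein phosphatase 1, which did not pass (blocked limma adjusted p = 0.107) although its groups did not overlap. Pln, the phospholamban gene, fell from 115 ± 30.7 to 47.5 ± 18.9 FPKM (log2 fold change -1.31, blocked limma adjusted p = 0.0101), with 64.7% of its exons covered by genes on the other strand. Fxyd1, or phospholemman, the PKA-regulated partner of the sodium pump, fell from 30.0 ± 7.06 to 13.8 ± 3.60 FPKM (log2 fold change -1.12, blocked limma adjusted p = 0.0119). Cardiac troponin I, Tnni3, fell from 231 ± 60.6 to 131 ± 36.8 FPKM (-0.82, 0.012), and the potassium channel gene Kcnq1 from 11.2 ± 1.93 to 6.37 ± 1.65 FPKM (-0.82, 0.0151), both adjusted p-values again with the block. Pln, Ryr2, Tnni3 and Mybpc3 stand in the list of cardiomyocyte markers too, so 4 of the 8 are shared between the lists. The parts of the muscarinic potassium channel did not pass, with Kcnj5 at 11.8 ± 3.50 and 12.6 ± 0.916 FPKM and Kcnj3 at 1.79 ± 1.18 and 1.02 ± 0.534.

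Of 11 transcripts known to respond to cAMP, 1 rose and 1 fell with the block, against 2.64% and 3.51% of all genes. The median was 0.09. The nuclear receptor gene Nr4a1 rose from 6.41 ± 1.06 to 9.57 ± 0.92 FPKM (log2 fold change 0.58, limma adjusted p = 0.31, and 0.0286 with the block). Ppargc1a, a coactivator of mitochondrial genes, fell from 5.24 ± 0.534 to 3.32 ± 0.837 FPKM (log2 fold change -0.67, limma adjusted p = 0.365, and 0.0415 with the block). The other 9 did not pass. Of these, Areg, Fosb, Nr4a3 and Nr4a2 were higher in AdCre in all 3 pairs, with log2 fold changes of 0.88, 0.82, 0.68 and 0.44 (blocked limma adjusted p of 0.116, 0.12, 0.275 and 0.177 in that order). Groups did not overlap for Fosb and Nr4a3. Per1 had a log2 fold change of -0.37, and Crem, Sik1, Fos and Dusp1 lay between -0.07 and 0.09.

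Markers of other cells moved beside these genes. In limma with the block 3.51% of all genes passed as lower and 2.64% as higher, and 24.7% had an unadjusted p below 0.05. The summed level of 7 endothelial markers was 84.3 to 131 FPKM in AdGFP and 124 to 183 in AdCre, with 3 of 7 higher with the block. For 8 fibroblast markers it was 2590 to 4640 and 2270 to 3320 FPKM, with 3 of 8 lower. Macrophage markers summed to 44.2 to 244 and 79.6 to 305 FPKM, with 1 of the 5 tested higher, and mesothelial markers to 39.9 to 150 and 30.4 to 70.2 FPKM, with 1 of 4 lower. The 7 smooth muscle and pericyte markers summed to 819 to 1310 and 975 to 1210 FPKM, and 0 passed in limma with the block, where 1 had an unadjusted p below 0.05. Autonomic neuron and Schwann cell markers summed to 1.80 to 4.80 FPKM in AdGFP and 2.17 to 3.13 in AdCre, with Chat, the acetylcholine synthesis gene, at 0 reads in every sample but AdGFP replicate 2. In limma 0 of the 3 tested passed, and all 3 had an unadjusted p below 0.05 with the block. Th and Dbh, enzymes of noradrenaline synthesis, had log2 fold changes of -1.04 and -1.11 and were lower in all 3 pairs, and the Schwann cell gene Sox10 had 1.14, with groups that did not overlap. Red cell markers summed to at most 2.18 FPKM. The part of these cells in the results was not tested.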

How the data were processed

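RNA-seq of 6 samples, 3 AdGFP and 3 AdCre, was analysed from 1 table with a column per sample and 0 columns left unused. FPKM values were deposited by the authors, and the submitters' processing notes name fastp, STAR 2.5, HTSeq 0.6.1 and the genome build mm10. Per the labels, poly-T beads selected the mRNA, and random hexamers primed the cDNA. The annotation release and the use of strand are not given in the sources used here. Symbols, coordinates and exon lengths came from GENCODE M21, which holds 54495 of the 54532 gene IDs. Dividing FPKM times exon length by the value of 1 read gave whole numbers (within 0.01) for 97.2% to 97.4% of the values above 0 in a sample, and these were used as reads. The library sizes that the FPKM values imply differ from the sums of these reads by relative factors between 0.949 and 1.05, taken here as a scaling by the authors, which is inferred from the values and stated in no source used here.

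The 9 genes and all lists were chosen with earlier results of these data known. Values were fitted as log2(FPKM + 0.1) in limma 3.58.1 (lmFit, eBayes with trend, R 4.3.3) with a term for group, on genes averaging 0.5 FPKM or more. The pseudocount makes fold changes of low genes too small. Replicate numbers are shared by the groups with no word on their meaning. Across genes, deviations from group means correlated by 0.568, 0.268 and 0.506 within same-numbered pairs and by -0.497 to 0.036 between samples with different numbers. Each pair was above 0.1, and samples were treated as paired by number for this reason alone. Ratios were compared with the exact two-sided permutation test. Named genes were all 9 members, Rit1, at most 4 called non-members per list by smallest blocked p (or the 1 with the smallest p), and the 3 genes most correlated with each called member. Adra1d, Prkaca, Ryr2, Mybpc3, Kcnj3, Kcnj5, Crem, Sik1, Fos, Dusp1, Areg, Fosb, Nr4a2, Nr4a3, Per1 and Ppp1r1a are named as well, a choice made with their values in view. Alternatives were pseudocounts of 1 and 0.01, no filter, at least 1 FPKM, TPM, median centring, quantile normalization, no trend and each sample left out, and the same with the replicate block, where a whole pair was left out in place of 1 sample. Values without the authors' scaling, voom on the recovered reads and the ratios to the cardiomyocyte markers were chosen after seeing the data.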

Additional observations from a re-analysis of the deposited data

How the results depend on the processing

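Without the replicate block, 0 of the 9 genes and 0 of the 133 pathway genes passed in limma under any of the 17 fits, and with the settings of the report 2 and 31 had an unadjusted p below 0.05. With the block, 2 members and 23 pathway genes passed. The blocked fit gave 2 members and 22 pathway genes with a pseudocount of 1, 2 and 22 with 0.01, 2 and 27 at 1 FPKM or more, 2 and 24 with TPM, 2 and 22 with median centring, 2 and 23 with quantile normalization, 2 and 26 without the authors' scaling, and 3 and 36 with voom. It gave 0 of each with no filter and with no trend, where 17 and 0 of all genes passed. Blocked fits without pair 1, 2 or 3 called 3, 1 and 0 members (lowest 0, highest 3) and 23, 8 and 0 pathway genes, and 772, 149 and 1 of all genes passed, so the calls need pair 3 and most of them pair 2. Adrb1 passed in 11 of 14 blocked fits and Adcy5 in 10 of 14, and both were lower in AdCre in every fit, as were Chrm2 and Adra1b. The sign of the genes near 0 turned. Adcy6 was at 0.05 with TPM, 0.03 without the authors' scaling, both with and without the block, and between -0.13 and 0.04 with a sample left out. Pde3a lay between -0.16 and 0.24 with a sample left out and at -0.06 in the blocked fit without pair 1. Pde4b was at 0.06 with TPM and 0.04 without the scaling, with and without the block, at 0.07 in the blocked fit without pair 1, and between -0.17 and 0.18 with a sample left out. Pde4d was at 0.00 with TPM, with and without the block, and at 0.03 in the blocked fit without pair 3. The cause was not tested. The median log2 fold change of all genes was -0.002 in the report and lay farthest from it with TPM, at 0.087. With a sample left out, the log2 ratio of Adcy5 to Adcy6 stayed between -0.68 and -0.55, while the sign turned for Pde4b to Pde4d (-0.14 to 0.24), Pde3a to Pde4d (-0.02 to 0.26), Chrm2 to Adrb1 (-0.09 to 0.37), and, against the cardiomyocyte markers, for Adrb1 (-0.09 to 0.15), Adcy5 (-0.04 to 0.32) and Chrm2 (-0.17 to 0.52). Depth limits Adra1a alone among the 9.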

Other observations

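Some genes of the pathway lists stood apart between the groups without passing the test, and are given as values chosen after they were seen. Chrm4, the gene of the muscarinic M4 receptor, had 0, 3 and 0 reads in AdGFP replicates 1 to 3 and 34, 10 and 13 in AdCre, or 0, 0.0821 and 0 FPKM against 0.737, 0.269 and 0.326. Every AdCre sample was above every AdGFP sample, but the gene lay under the level needed for testing. Adcy1, a calcium-stimulated cyclase, had 1.92, 1.03 and 1.5 FPKM in AdGFP and 0.728, 0.606 and 0.957 in AdCre (log2 fold change -0.85, limma adjusted p = 0.41, and 0.0849 with the block). Gnao1, the alpha subunit of Go, had 2.41, 2.12 and 1.96 FPKM in AdGFP and 3.26, 3.32 and 2.79 in AdCre (log2 fold change 0.51, limma adjusted p = 0.341, and 0.0637 with the block). Prkcd, a protein kinase C of the Gq arm, had 14.2, 16.7 and 17.8 FPKM in AdGFP and 21.2, 20.7 and 22.7 in AdCre (log2 fold change 0.41, limma adjusted p = 0.341, and 0.0514 with the block). None of the last 3 overlapped between the groups, which held for 17 lower and 14 higher genes of the 117 tested in the lists, against 8.02% and 7.36% of all genes.

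The pacemaker channel genes Hcn4 and Hcn2 differed in direction in mean. Hcn4 had 2.86, 4.64 and 4.94 FPKM in AdGFP and 2.97, 1.97 and 2.57 in AdCre, so that AdGFP replicate 1 lay within the AdCre range (log2 fold change -0.69, blocked limma adjusted p = 0.159). Hcn2 had 6.02, 6.89 and 4.96 FPKM in AdGFP and 11.2, 9.95 and 6.0 in AdCre, with AdCre replicate 3 inside the AdGFP range (log2 fold change 0.56, blocked limma adjusted p = 0.0696). Neither passed.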
